A study of Mus musculus with 12 samples.

Results

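Antioxidant defence genes were followed through the adult mouse hippocampus as a set of 10 genes fixed by name: Hmox1, Nqo1, Gclc, Gclm, Sod1, Sod2, Gpx1, Gpx4, Txnrd1 and Prdx1. All 10 have a row among the 36119 genes of the deposited table, and all 10 passed the filter on low values. The table holds 12 hippocampus libraries from C57BL/6 mice at postnatal day 70, in 4 groups of 3. Standard saline mice received 0.15 M saline under the skin as pups and lived in standard cages, standard ethanol mice received ethanol and standard cages, enriched saline mice saline and enriched cages, and enriched ethanol mice both. The ethanol dose was 2.5 g/kg in each of 2 injections given 2 hours apart on postnatal days 6 and 7, and the housing began on day 21. The labels call the ethanol treatment prenatal although every injection followed birth. Enriched cages gave groups of 2 to 6 same-sex littermates wheels and toys, and the sex, litter and cage of each mouse are not given. Nothing says that the 3 libraries of a group come from separate litters. The p-values set differences against the spread among these libraries only, and may be too small if littermates share a group.

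These genes encode enzymes that remove reactive oxygen species and repair their effects. Superoxide dismutases turn superoxide into hydrogen peroxide, which glutathione peroxidases and peroxiredoxins reduce to water with electrons from glutathione and thioredoxin. Many of the genes are induced by NRF2 (Nfe2l2), a transcription factor that is held down by KEAP1 until oxidants or electrophiles modify that sensor, and that binds the antioxidant response element of its target genes. Ethanol metabolism in the brain produces acetaldehyde and can yield reactive oxygen species, and oxidative damage to the newborn brain is a long-studied consequence of early alcohol. In the normal brain, glia and the cells of vessels and barriers carry much of the NRF2 response.

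The regulatory sequence that links several of these genes is shown first. The core of the antioxidant response element, TGACNNNGC on either strand, was searched in the RefSeq promoter windows of GRCm38.p6, which run from 250 bases before to 50 after a gene's start. Of the 8 members with a window, 4 held the core, and among all 27025 genes with a window 3781 did (14%). The match in each is given with 10 bases on both sides, on the strand of the gene, with the core in capitals. It lies on the opposite strand in all 4, so that the capitals read GC, any 3 bases, then GTCA. The 4 windows are chr3:122245413-122245441 for Gclm, chr16:90220696-90220724 for Sod1, chr10:82859104-82859132 for Txnrd1 and chr4:116685456-116685484 for Prdx1, all on the plus strand and all upstream of the start.
Gclm: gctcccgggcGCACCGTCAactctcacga
Sod1: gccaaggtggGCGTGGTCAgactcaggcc
Txnrd1: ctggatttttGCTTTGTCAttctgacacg
Prdx1: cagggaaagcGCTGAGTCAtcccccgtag
The match starts 134, 56, 92 and 133 bases before the start in Gclm, Sod1, Txnrd1 and Prdx1. The Txnrd1 match belongs to 1 of the 3 Txnrd1 starts with a window. It lies within the span of the gene, whereas the other 3 matches lie outside their genes. The fuller form of the element has A or G before the core. The Txnrd1 and Prdx1 matches have it and those of Gclm and Sod1 do not, and 7.2% of all genes with a window hold it. Nqo1, Sod2, Gpx1 and Gpx4 had no match in these windows, which says only that these letters are absent there, and Hmox1 and Gclc had no window. A match is a description of the sequence and no evidence of binding.

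Levels are given as deposited TPM, which is per transcript length and so can be compared between genes. Sod1 (chromosome 16, 90220754 to 90226329, GRCm38), the copper-zinc superoxide dismutase of the cytosol, had the highest mean over the 12 libraries, 527, above 98.6% of the genes tested. Gpx4 (chromosome 10, 80047166 to 80056439), the selenium-containing peroxidase that reduces lipid peroxides in membranes, followed with 484. Together they made up between 63.0% and 67.0% of the summed level of the 10 genes in every library. Prdx1, a thioredoxin-dependent peroxidase of the cytosol, averaged 176. Sod2, the manganese dismutase of mitochondria, averaged 137, and Gpx1, the soluble glutathione peroxidase, 92.6. A lower tier held Gclm (41.5), the modifier subunit of the enzyme that starts glutathione synthesis, Txnrd1 (38.5), the cytosolic thioredoxin reductase, and Gclc (33.5), the catalytic subunit partnered by Gclm. Nqo1 (6.68), which reduces quinones, and Hmox1 (5.65), the inducible heme oxygenase, were lowest, above 26.7% and 23.9% of the genes tested. On the same build the other 8 genes lie at chromosome 4, 116685544 to 116700822 (Prdx1), chromosome 17, 13006846 to 13040063 (Sod2), chromosome 9, 108338903 to 108340343 (Gpx1), chromosome 3, 122245557 to 122270732 (Gclm), chromosome 10, 82833951 to 82897712 (Txnrd1), chromosome 9, 77754535 to 77794485 (Gclc), chromosome 8, 107388225 to 107403206 (Nqo1) and chromosome 8, 75093621 to 75100589 (Hmox1). The order was not fixed between all neighbours. Sod1 exceeded Gpx4 in 11 of 12 libraries, Gclm exceeded Txnrd1 in 9 and Nqo1 exceeded Hmox1 in 8, whereas the ranges of Gpx4 and Prdx1, Prdx1 and Sod2, Sod2 and Gpx1, Gpx1 and Gclm, and Gclc and Nqo1 did not overlap. Txnrd1 lay above Gclc in all 12 libraries although their ranges overlapped.

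The genes differed in how steady they were within groups. The residual SD on the log2 scale was smallest for Sod1 (0.068) and Gclc (0.078), against a median of 0.16 over all genes tested, and only 6.52% and 11.1% of those genes varied less. Txnrd1 (0.088), Prdx1 (0.10), Sod2 (0.10), Gpx4 (0.11) and Hmox1 (0.13) also lay under that median, and Gpx1 (0.16) lay at it. Gclm (0.19) and Nqo1 (0.34) lay above it, and 85.1% of genes varied less than Nqo1. Across all 12 libraries the highest value was 1.17 times the lowest for Gclc and 2.59 times for Nqo1, and between 1.23 and 1.44 times for the other 8. The plot of member values by library shows these differences in spread.

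**Figure D1:**
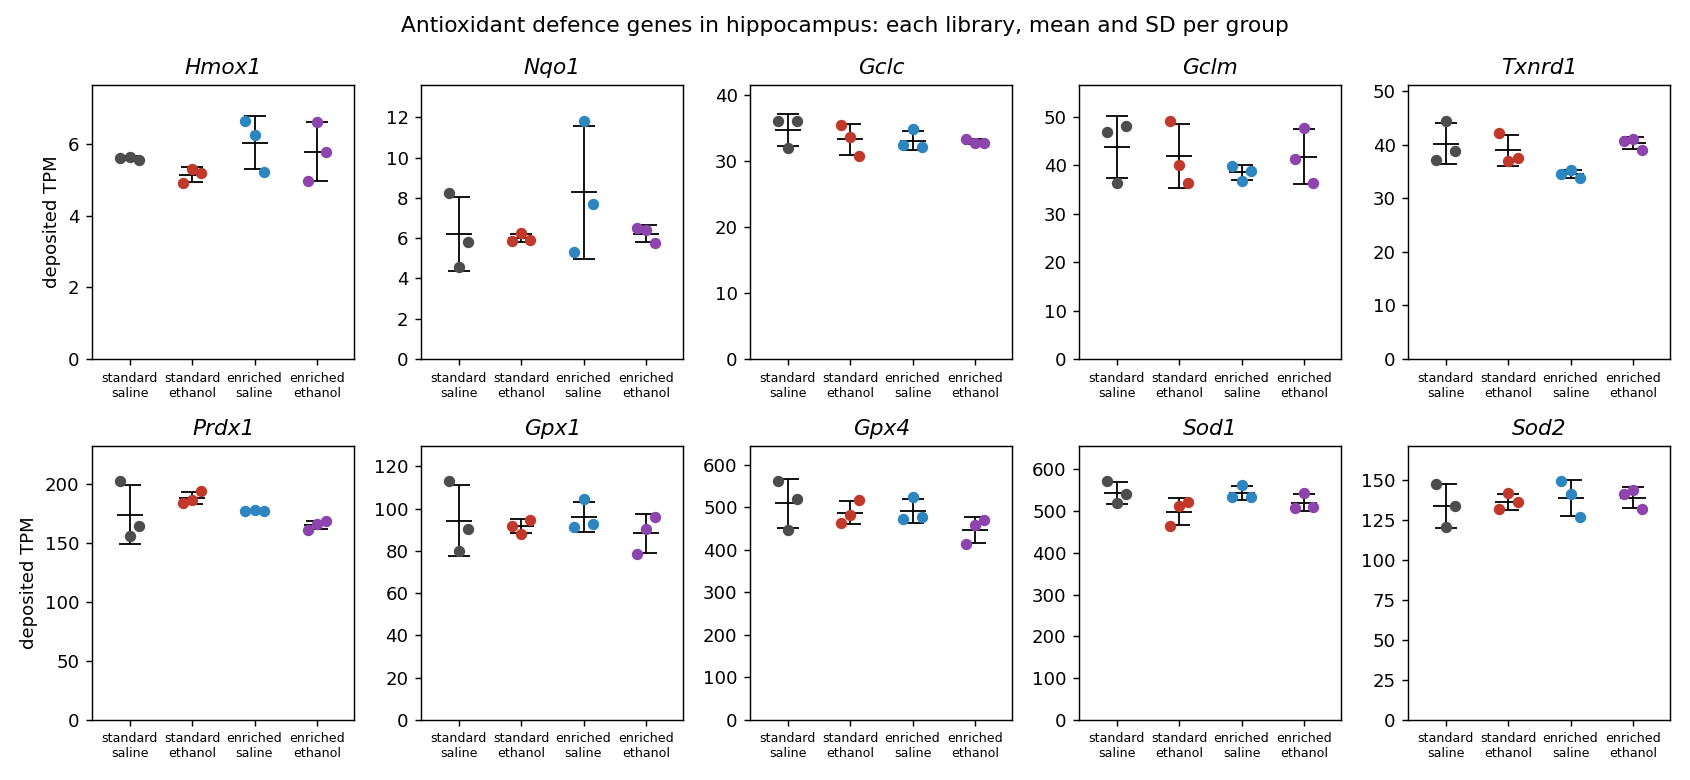
Deposited TPM of the 10 genes (vertical axes from 0, one scale per gene) in the 4 groups, with 1 point per library and bars for the mean and SD of 3. Groups overlap for most genes, Txnrd1 is lowest in the 3 enriched saline libraries (33.8 to 35.3), and 1 enriched saline library is high for Nqo1 (11.8).

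Marker levels of several cell types differed between the libraries. Markers of the hippocampus itself were present in each, with summed levels of 8 dentate granule cell markers between 211 and 407 and of 8 pyramidal cell markers between 443 and 617. Choroid plexus, a neighbouring tissue, was uneven: its 9 markers summed to 7820 in enriched saline replicate 2, to 435 in standard ethanol replicate 1, and to at most 139 elsewhere. The dentate granule cell sum was highest (407) in standard saline replicate 2. Markers of red blood cells summed to 7866 in standard saline replicate 1, where Sod1, Gpx1, Gpx4 and Prdx1 had their highest values, and to 9041 in standard ethanol replicate 1, where Sod1 had its lowest; the part of blood was not tested. The heat shock gene Hspa1a was at 39.9 and 40.02 in enriched ethanol replicates 1 and 2, against 7.96 to 12.3 elsewhere. In whole tissue, fewer cells of a type and less RNA per cell cannot be told apart.

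Ethanol was first compared with saline in mice from standard cages. None of the 10 genes passed in limma, at a Benjamini-Hochberg adjusted p under 0.05 over all 14947 genes tested, where 0.0134% of all genes did. At an unadjusted p under 0.05 there were 0 of 10 members, against 7.39% of all genes. The smallest limma adjusted p of a member was 0.682. The median log2 fold change of the 10 genes was -0.05, against 0.00 over all genes tested, with 8 genes lower and 2 higher in ethanol mice. Leaving out standard saline replicate 2 gave a median of -0.13, and leaving out replicate 1 of that group gave 0.00. Summed meningeal fibroblast markers did not overlap here, at 102 to 137 in saline and 165.5 to 206.5 in ethanol mice, nor did summed endothelial markers, at 148 to 185 and 187 to 190. Of the 10 endothelial markers, 0 had an unadjusted p under 0.05, and their median log2 fold change was 0.23. Flt1 went against the endothelial sum, at 18.1, 16.7 and 18.5 in saline and 16.2, 15.2 and 15.7 in ethanol mice. The myelin sums were 3371 to 5775 and 5566 to 5874, and the dentate granule cell sums 264 to 407 and 211 to 266. Of the 8 dentate granule cell markers, 6 were lower in ethanol mice at an unadjusted p under 0.05 and 0 passed in limma, with a median log2 fold change of -0.56. The part of these cell types in the members' differences was not tested.

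Sod1 had the smallest p of the 10 here. Its saline values were 571, 519 and 542, and its ethanol values 463, 511 and 521.5. The highest ethanol value lay above the lowest saline value, so the groups overlapped. The log2 fold change was -0.13 (SE 0.06), a difference of -8.35% with a 95% interval from -16.3% to 0.4% (limma adjusted p = 0.682). Leaving out standard ethanol replicate 1, the lowest for Sod1, gave -0.07. The mitochondrial Sod2 was at 148, 120.5 and 134 against 132, 142 and 136, with a difference of 2.2% (interval -9.6% to 15.5%).

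Hmox1 was the 1 member of 10 whose libraries did not overlap between these groups, as was the case for 12.1% of all genes. It was at 5.62, 5.66 and 5.56 in saline mice and at 4.93, 5.32 and 5.21 in ethanol mice. All 3 ethanol libraries were lower. The difference was -7.6% with an interval from -24.5% to 13.1% (limma adjusted p = 0.908). The model borrows the spread of all 4 groups, and the Hmox1 SD was 0.046 and 0.20 in these groups and 0.74 and 0.82 in the enriched groups.

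The glutathione synthesis pair showed no difference beyond its spread. Gclc was at 36.0, 31.9 and 36.1 in saline mice and at 35.4, 33.6 and 30.8 in ethanol mice. Gclm was at 46.8, 36.45 and 48.2 against 49.3, 40.2 and 36.3. High and low libraries occurred in both groups, and the intervals ran from -14.3% to 7.5% for Gclc and from -22.0% to 17.3% for Gclm. Gpx1 and Gpx4 differed by -1.8% (interval -17.5% to 16.8%) and -3.9% (interval -15.5% to 9.3%), Txnrd1 by -3.0% (interval -13.8% to 9.3%), and Prdx1 by 8.6% (interval -3.7% to 22.5%). For Prdx1 the log2 fold change of 0.12 became 0.23 when standard saline replicate 1 was left out and 0.04 when replicate 2 was. Nqo1 differed by -0.5%, and its interval from -31.5% to 44.7% was the widest of the 10.

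The effect of ethanol was next examined within enriched cages. limma called 0 of the 10 genes and 0 of all 14947 (0%). At an unadjusted p under 0.05 there was 1 member, Txnrd1, against 7.76% of all genes. The median log2 fold change of the 10 genes was -0.06, against -0.01 over all genes, with 7 lower and 3 higher in ethanol mice. Libraries did not overlap for 3 members, Txnrd1, Gpx4 and Prdx1, and for 15.2% of all genes.

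Txnrd1, which keeps thioredoxin reduced with electrons from NADPH, was at 40.7, 41.1 and 39.0 in enriched ethanol mice and at 34.6, 35.3 and 33.8 in enriched saline mice. Every ethanol library was higher. The log2 fold change was 0.22 (SE 0.08), a difference of 16.3% with an interval from 3.3% to 30.9%, and it did not pass (limma adjusted p = 0.592). The enriched saline libraries are the low ones of the whole set, since the 9 others ran from 36.95 to 44.5. Summed astrocyte markers were also apart, at 2897 to 3022 in enriched saline and 3207 to 3357 in enriched ethanol mice. Of the 10 markers, 3 were higher and 0 lower at an unadjusted p under 0.05 (7.76% of all genes), and 0 passed in limma. Slc1a2, the largest part of the sum, was at 1061, 1019 and 1144 against 1328, 1202 and 1314. S100b, at 146, 119 and 119 against 108, 118 and 124, did not follow the sum, nor did Aldh1l1. The part of astrocytes in the Txnrd1 difference was not tested.

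Both peroxidases with separated libraries were lower in enriched ethanol mice. Gpx4 was at 413, 458 and 469.5 against 473, 524 and 476.5 in enriched saline mice, and the nearest libraries were 469.5 and 473. Its difference was -9.1% with an interval from -20.1% to 3.4% (limma adjusted p = 0.707). Prdx1 was at 161, 165 and 168 against 177, 178 and 177, a difference of -7.0% with an interval from -17.5% to 4.9% (limma adjusted p = 0.765). The Prdx1 SD was 0.61 in enriched saline and 24.6 in standard saline mice, and the fitted error reflects all groups.

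For the other members in enriched cages the libraries overlapped. Sod1 was at 507, 544 and 509 in ethanol mice against 535, 563 and 534 in saline mice, a difference of -4.4% (interval -12.7% to 4.7%). Gpx1 was at 78.4, 90.3 and 96.1 against 91.4, 104 and 92.6, a difference of -8.3% (interval -22.9% to 9.1%). Gclc, at 33.4, 32.7 and 32.8 against 32.5, 34.8 and 32.1, differed by -0.4% (interval -11.1% to 11.5%). Libraries of both groups interleave for each of these genes. Gclm was 7.7% higher (interval -12.1% to 32.0%) and Sod2 0.1% higher (interval -11.5% to 13.1%), and the Hmox1 difference was -3.9% (interval -21.5% to 17.7%). Nqo1 was at 6.51, 6.42 and 5.76 against 5.31, 11.8 and 7.68, and its log2 fold change of -0.32 (limma adjusted p = 0.770) was -0.04 without enriched saline replicate 2. Hmox1 was at 4.98 and 6.62 in the 2 enriched ethanol libraries with high Hspa1a and at 5.79 in the third, and a relation between these genes was not tested.

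**Figure D2:**
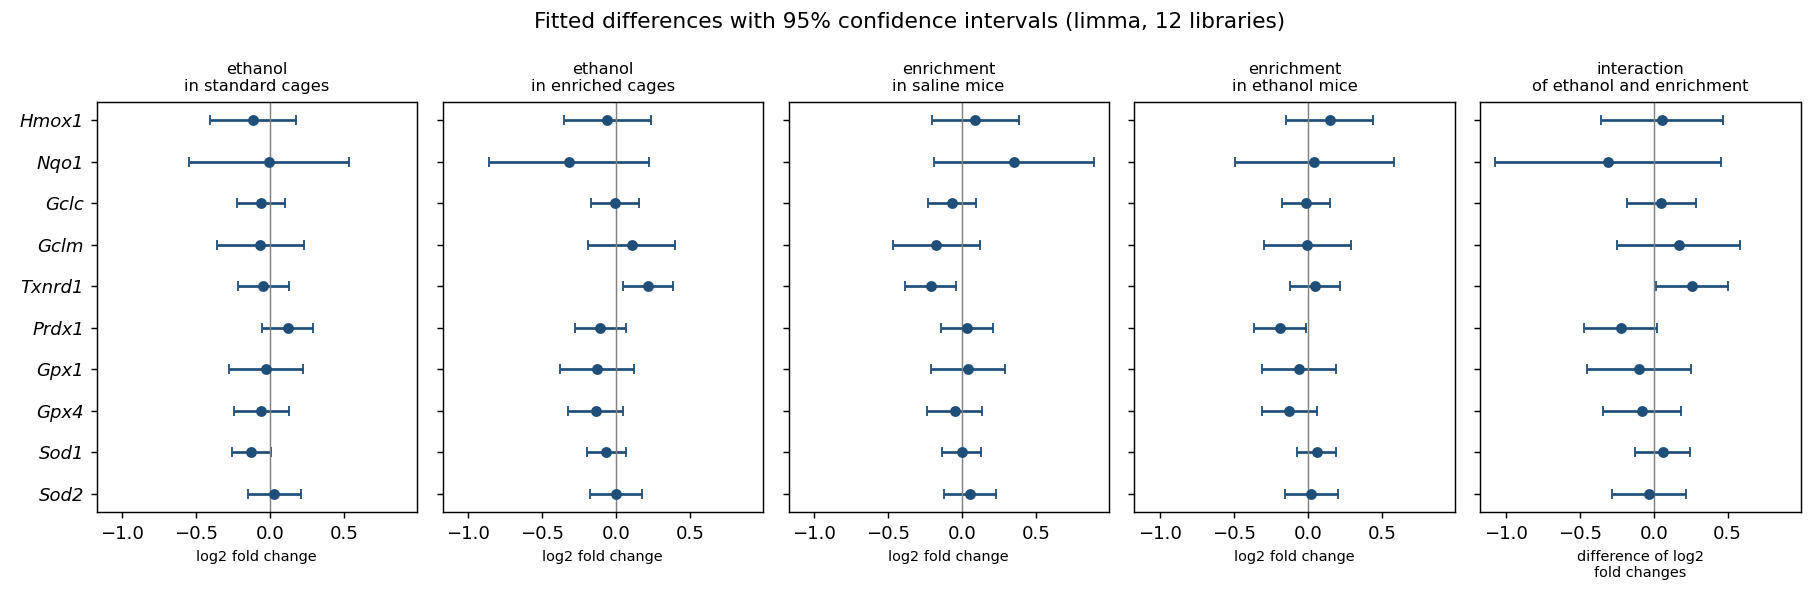
Fitted log2 fold changes of the 10 genes with 95% confidence intervals (horizontal axis; vertical line at 0) for ethanol in each housing, enrichment in each treatment and their interaction. Txnrd1 in 3 panels and Prdx1 in 1 have intervals that leave out 0, none of which passed after adjustment over all genes.

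Enrichment was then compared with standard cages in saline mice. Again 0 of the 10 genes passed in limma, where 0.0268% of all genes did, and 1 had an unadjusted p under 0.05, where 10% of all genes did. That gene was Txnrd1, and it was also the 1 member whose libraries did not overlap, as 14% of all genes did not. It was at 37.2, 44.5 and 38.9 in standard and at 34.6, 35.3 and 33.8 in enriched saline mice. All 3 enriched libraries were lower. Its log2 fold change of -0.21 (SE 0.08) corresponds to a difference of -13.6% with an interval from -23.3% to -2.7% (limma adjusted p = 0.422). The 2 Txnrd1 comparisons given so far share the same 3 enriched saline libraries and are not independent. Standard saline replicate 2, the highest for Txnrd1, was also the highest for the dentate granule cell sum, and had a low astrocyte sum (2964). Without it the log2 fold change was -0.14 (limma adjusted p = 0.609), and without standard saline replicate 1 it was -0.26 (limma adjusted p = 0.211). The part of cell composition in this difference was not tested.

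Nqo1 had the largest fitted difference of any member in saline mice, and its size depended on single libraries. Nqo1 was at 8.23, 4.58 and 5.82 in standard saline mice and at 5.31, 11.8 and 7.68 in enriched saline mice. The value of 11.8 belongs to replicate 2, the library with choroid plexus markers at 7820. The difference was 27.9% with an interval from -12.0% to 85.9% (limma adjusted p = 0.661), and the log2 fold change of 0.35 was 0.07 without that library. It was also 0.17 without standard saline replicate 2, 0.56 without replicate 1 of that group and 0.62 without enriched saline replicate 1. The summed meningeal fibroblast markers were also highest in enriched saline replicate 2, at 218 against 102 to 207 in the other 11 libraries. Of these markers, Dcn (94.85), Igf2 (42.69) and Lum (4.63) were highest in that library. Col1a1, Col1a2, Col3a1, Pdgfra and Slc6a13 were highest in other libraries. Ttr made up 7503 of the choroid plexus sum of 7820 there. All 9 choroid plexus markers and all 8 fibroblast markers had a mean of at least 1. Aqp1 and Kcne2 reached it only through enriched saline replicate 2 (23.1 and 32.0), and were at most 2.02 and 2.13 elsewhere. Standard ethanol replicate 1 had the second highest choroid plexus sum (435). Nqo1 was at 5.87 in it, the lowest of its group, against 6.25 and 5.93 in replicates 2 and 3. The part of these tissues in the Nqo1 value was not tested.

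**Figure D3:**
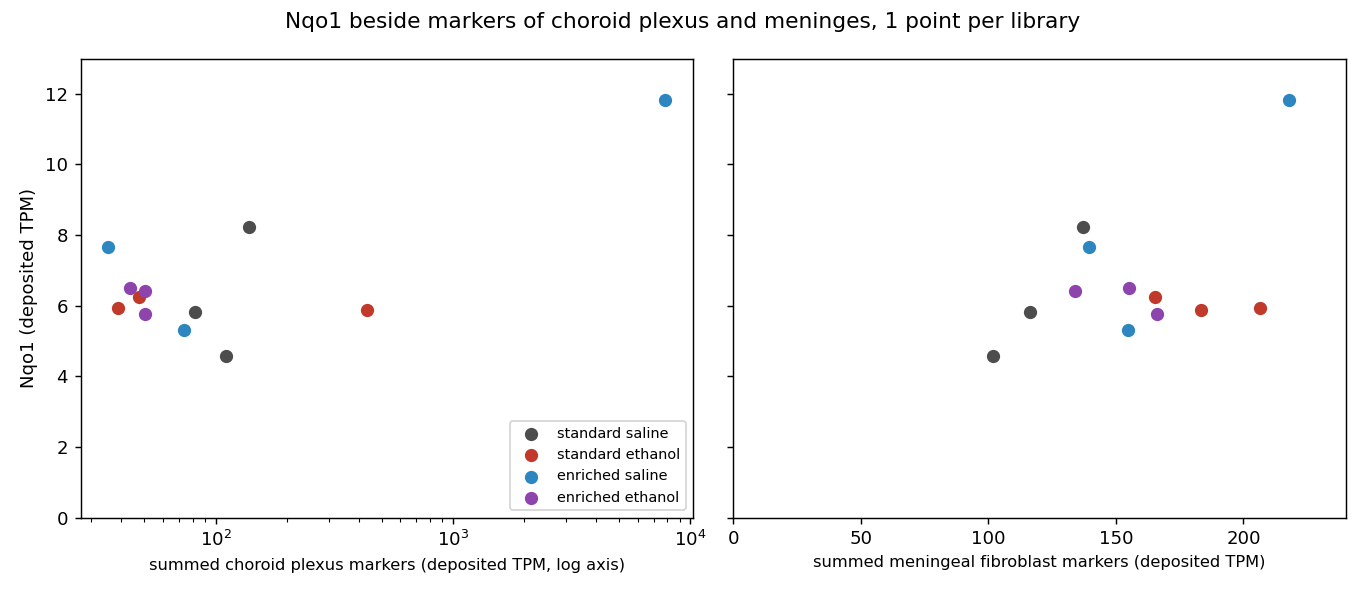
Nqo1 in deposited TPM (vertical axis) against the summed choroid plexus markers (left, log axis) and the summed meningeal fibroblast markers (right), 1 point per library coloured by group. Enriched saline replicate 2 is highest on every axis (Nqo1 11.8, choroid plexus sum 7820, fibroblast sum 218), and the other 11 libraries lie between 4.58 and 8.23 for Nqo1.

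The other members overlapped between housings in saline mice. Sod1 averaged 543.8 ± 25.99 (SD, n = 3) in standard and 543.7 ± 16.4 (SD, n = 3) in enriched saline mice, with an interval from -8.7% to 9.5%. Gclm averaged 43.8 ± 6.43 against 38.6 ± 1.64 (SD, n = 3 for each), and the difference of -11.3% had an interval from -27.6% to 8.8%. Sod2, Gpx1, Prdx1 and Hmox1 differed by 3.9%, 2.8%, 2.5% and 6.6%, and Gpx4 and Gclc by -3.2% and -4.4%, all with intervals that included 0. The median log2 fold change over the 10 genes was 0.02, against 0.00 over all genes, and was -0.06 without standard saline replicate 2 and 0.06 without replicate 1.

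In ethanol mice, enrichment was compared in the same way. 0 of the 10 genes passed in limma (0.00669% of all genes did), and 1, Prdx1, had an unadjusted p under 0.05 (5.57% of all genes). Prdx1 was also the 1 member with no overlap between groups, against 12% of all genes. It was at 184, 186 and 193 in standard ethanol and at 161, 165 and 168 in enriched ethanol mice. All 3 enriched libraries were lower, by a log2 fold change of -0.19 (SE 0.08), or -12.2% with an interval from -22.1% to -0.9% (limma adjusted p = 0.883). The related cytosolic peroxiredoxin Prdx2, not a member, was at 339, 343 and 338 against 303, 319 and 307, with every enriched library lower (log2 fold change -0.13, SE 0.06, limma adjusted p = 0.883). Prdx2 is named because it had the smallest p of its list of 15 genes in this comparison. The other peroxiredoxins of that list, Prdx3, Prdx4, Prdx5 and Prdx6, overlapped between these groups. Prdx2 is abundant in red blood cells, and the summed markers of blood ran from 1359 to 9041 in standard ethanol and from 1041 to 5033 in enriched ethanol mice, which overlap. The myelin sums were 5566 to 5874 and 4019 to 5976. The 12 heat shock genes summed to 3697 to 4104 in standard and 4126 to 5084 in enriched ethanol mice without overlap, and 7 of them were higher in enriched mice at an unadjusted p under 0.05 while 0 passed in limma. The part of any of these in the Prdx1 difference was not tested.

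The other members in ethanol mice overlapped between housings. Gpx4 was at 464, 481 and 518 in standard and at 413, 458 and 469.5 in enriched mice, a difference of -8.4% (interval -19.4% to 4.2%). Hmox1 differed by 10.8% (interval -9.5% to 35.7%) and Sod1 by 4.3% (interval -4.7% to 14.3%). Gclm averaged 41.9 ± 6.64 in standard and 41.8 ± 5.66 in enriched mice (SD, n = 3). Txnrd1, Nqo1 and Sod2 differed by 3.6%, 3.2% and 1.8%, and Gclc and Gpx1 by -0.8% and -4.0%, all with intervals that included 0. Over the 10 genes the median was 0.01, against -0.01 over all genes.

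Whether the effect of ethanol depended on housing was tested with the interaction term, the ethanol difference in enriched cages minus that in standard cages. 0 of the 10 genes passed (0.0134% of all genes in limma), and 1 had an unadjusted p under 0.05 (7.41% of all genes). Txnrd1 had the smallest p, with a difference of 0.26 between log2 fold changes (SE 0.11; limma adjusted p = 0.648). In standard cages its ethanol mean was 38.9 ± 2.90 against 40.2 ± 3.82 in saline mice, and in enriched cages 40.3 ± 1.09 against 34.55 ± 0.759 (SD, n = 3 for each). Prdx1 went the other way, with -0.22 (SE 0.11; limma adjusted p = 0.698). Its means were 188 ± 4.97 against 174 ± 24.6 in standard cages and 165 ± 3.64 against 177 ± 0.614 in enriched cages (SD, n = 3 for each). Neither passed. Without standard saline replicate 2 the interaction was 0.19 for Txnrd1 and -0.15 for Prdx1, and without replicate 1 it was -0.34 for Prdx1.

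Averaged over the other factor, the comparisons use 6 libraries against 6. For ethanol, 0 members passed (0.0134% of all genes in limma), and Sod1 was the 1 member with an unadjusted p under 0.05 (8.02% of all genes). The Sod1 log2 fold change was -0.10 (SE 0.04; limma adjusted p = 0.616), with means of 499 ± 31.3 and 520 ± 20.6 in both ethanol groups and 544 in both saline groups. For enrichment, 0 members passed (0.0201% of all genes in limma) and 0 had an unadjusted p under 0.05 (7.96% of all genes). The largest value there was that of Nqo1, 0.20 (SE 0.17; limma adjusted p = 0.809). The median over the 10 genes was -0.05 for ethanol and -0.02 for enrichment.

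Genes around the antioxidant system were described with 9 further lists holding 104 genes, of which 101 were tested. Not every gene on them is a defence gene. Sources of superoxide and peroxide, such as Nox4 and Maoa, are pooled in the counts and medians. limma called 0 of the 101 in each of the 7 comparisons. At an unadjusted p under 0.05 there were between 6 and 10 of the 101 in each comparison, near the 5.57% to 10% of all genes, with medians of the log2 fold change between -0.03 and 0.01. Osgin1, Cybb and Duox1 had a mean under 1 and were not tested. Nfe2l2 itself lay between 12.4 and 17.4 and its inhibitor Keap1 between 39.2 and 45.2 over the 12 libraries, and 0 of the 12 regulators had an unadjusted p under 0.05 for enrichment within saline mice, for enrichment within ethanol mice or for ethanol in enriched cages, where 10%, 5.57% and 7.76% of all genes did. For enrichment averaged over treatment 1 did (7.96% of all genes), Mafk, a small Maf partner of NRF2, at 0.16 on the log2 scale (SE 0.07; limma adjusted p = 0.614). In standard cages 1 did for ethanol (7.39% of all genes), the autophagy receptor Sqstm1, at -0.11 on the log2 scale (SE 0.05; limma adjusted p = 0.639).

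The gene of these further lists with the smallest adjusted p in 4 of the 7 comparisons was Fth1, the heavy chain of the iron store ferritin and an NRF2 target. Fth1 was at 2604, 2350 and 2649 in standard saline mice and at 2152, 1917 and 1918 in standard ethanol mice. It was at 2170, 2085 and 1994 in enriched saline mice and at 2388, 2508 and 2153 in enriched ethanol mice. All standard ethanol and all enriched saline libraries were below every standard saline library, whereas enriched ethanol overlapped with both saline groups. The log2 fold change for ethanol in standard cages was -0.35 (SE 0.08; limma adjusted p = 0.271) and the interaction 0.52 (SE 0.11; limma adjusted p = 0.483), neither of which passed. The light chain Ftl1 lay between 425 and 544, with 544, 425 and 456 in standard saline against 430, 499 and 512 in standard ethanol mice, so that Ftl1, unlike Fth1, overlapped there. Comparisons that use the same group share its libraries. The plot of genes with crossed lines sets Fth1 beside Txnrd1 and Prdx1.

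**Figure D4:**
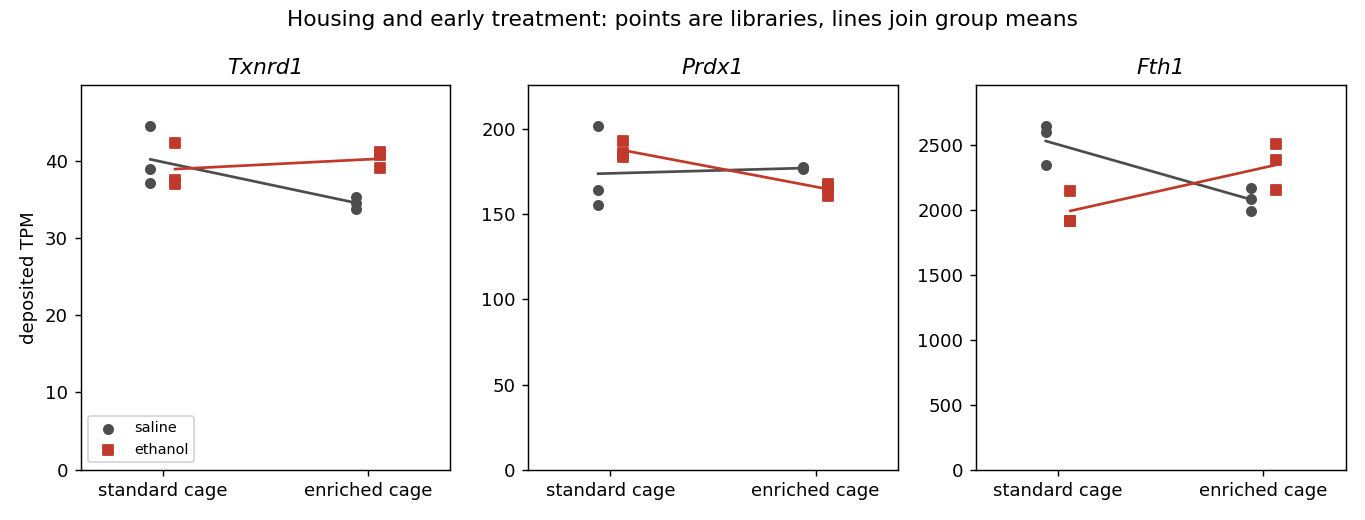
Deposited TPM (vertical axes from 0) of Txnrd1, Prdx1 and Fth1 by cage type, with 1 point per library and lines joining the means of saline (grey circles) and ethanol (red squares) mice. The lines cross in each panel, and the interaction passed in none (limma adjusted p = 0.648, 0.698 and 0.483).

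Among other peroxide and thioredoxin genes, the mitochondrial reductase Txnrd2 was at 17.1, 15.6 and 17.8 in standard saline and at 11.15, 12.99 and 14.5 in enriched saline mice. All 3 enriched libraries were lower (log2 fold change -0.38, SE 0.12, limma adjusted p = 0.376). Txnrd2 is named because it had the smallest p of its list in this comparison, and Txnrd3 overlapped between these groups. Txnrd2 was at 12.1, 12.1 and 14.8 in enriched ethanol mice. Txn1, the cytosolic thioredoxin, lay between 76.0 and 93.9 over the 12 libraries, and catalase (Cat), which splits hydrogen peroxide in peroxisomes, between 38.5 and 45.7.

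In the glutathione list, Ggt7 had the smallest p for ethanol averaged over housing, at -0.19 on the log2 scale (SE 0.05; limma adjusted p = 0.440). Gstm7, a glutathione transferase, was at 29.4, 32.1 and 30.3 in standard saline and at 23.9, 25.1 and 25.6 in enriched saline mice, with the groups apart and limma adjusted p = 0.343. Of 19 genes in this list, 2 had an unadjusted p under 0.05 for ethanol in standard cages (7.39% of all genes) and 3 in enriched cages (7.76%). Me1, an NADPH-producing enzyme and NRF2 target, had the smallest p for enrichment averaged over treatment (-0.25 on the log2 scale, SE 0.07; limma adjusted p = 0.452). It lay between 32.2 and 36.5 in the 6 enriched and between 35.96 and 48.04 in the 6 standard libraries.

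Selenow, a small selenoprotein abundant in brain, was at 967, 1007 and 977 in enriched ethanol and at 843.5, 828 and 802 in enriched saline mice, with every ethanol library higher (log2 fold change 0.25, SE 0.08; limma adjusted p = 0.576). In the same comparison the selenoprotein Gpx4 was lower and the selenoprotein Txnrd1 higher. Metallothionein 1 (Mt1), a metal-binding scavenger, varied from 262.5 to 730.5 over the 12 libraries, and its groups overlapped. Mt2 was at 201, 176 and 184.5 in standard saline and at 251, 289 and 214 in standard ethanol mice, with every ethanol library higher, and it did not pass (log2 fold change 0.42, SE 0.24; limma adjusted p = 0.743).

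As a description over 12 libraries, the most alike pair was Gpx1 and Gpx4, with Pearson's r of 0.86 and Spearman's rho of 0.70, followed by Gpx1 and Prdx1 (r = 0.73, rho = 0.64) and Gpx4 and Prdx1 (r = 0.69, rho = 0.66). The subunits Gclc and Gclm had r = 0.68 and rho = 0.70, although Gclm exceeded Gclc by between 1.06 and 1.46 times in each library. The lowest Pearson's r was that of Nqo1 and Txnrd1 (r = -0.53, rho = -0.41), and the lowest rho that of Gpx4 and Txnrd1 (-0.64). These values share libraries, groups and scaling and were not tested.

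Among 14108 other protein-coding genes, those most like each member in pattern over the 12 libraries were found by Pearson's r on the log2 scale. For Nqo1 they were Emilin1 (r = 0.97), Sh2b2 (0.915) and the homeobox gene Msx1 (0.914). Msx1 was at 14.5 in enriched saline replicate 2 and between 3.94 and 6.41 elsewhere, and without the 2 libraries farthest from the Nqo1 median r was 0.937 for Emilin1 and 0.675 for Msx1. For Gpx1 the nearest was Fars2 (r = 0.96), for Gpx4 Ccdc122 (0.93), followed by the ribosomal protein gene Rps14 (0.92), for Sod2 Zic2 (0.925), and for Sod1 Rp2 (0.92). For Txnrd1 they were Sema5a, Arid1b and Zbtb20 (0.92, 0.92 and 0.91), for Prdx1 Sertad1 (0.91), for Hmox1 Gnb5 (0.87), for Gclc Fxyd4 (0.87) and for Gclm Tgfb1 (0.85). Without the 2 libraries farthest from each member's median, r for the nearest genes ran from 0.734 (Tgfb1) to 0.937 (Emilin1). No member was among the 3 nearest genes of another. These are the highest of 14108 values for each member over only 12 libraries, a search that gives high values by itself. Likeness was not tested.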

How the data were processed

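Per the submitters' processing notes, the tools were CASAVA, kallisto and sleuth and the build mm10, with no versions, roles or order. Libraries were stranded and depleted of ribosomal RNA, per the labels' protocols. The deposited table holds a signal per gene and library, named TPM by the authors. Its columns sum to between 973187 and 1024536, so they carry a further factor per library, and the test planned for TPM was kept. Read depth is unknown, so no counting interval is given. All 12 columns matched a sample, 0 were left over, and no columns were identical.

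Symbols and positions came from GENCODE M21 (GRCm38, which mm10 names), for 35827 of 36119 identifiers. Group means were fitted across all genes with limma 3.58.1 (R 4.3.3, mean-variance trend, 8 residual degrees of freedom) on log2(TPM + 0.5), keeping the 14947 genes that averaged 1 or more. Changes of low genes are understated by this pseudocount. Each of the 7 comparisons was tested from both sides, p-values were adjusted by Benjamini-Hochberg across the whole table, and 0.05 was the threshold. The code was tested on simulated data with planted changes larger than any difference of a member here. That test does not show whether changes of the size reported would be found.

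The 10 genes, lists and tests were chosen with earlier results of these data known. Every member is reported. From each list the 2 genes with the smallest p per comparison were eligible, and the 3 protein-coding genes most correlated with each member. Nfe2l2, Keap1, Ftl1, Hspa1a and the values given for marker sums were chosen after they were seen. With blastn 2.17.0, other genes in the table matched transcripts of Gpx4, Prdx1, Sod1 and Fth1 at 90% identity or more over at least 400 bases. Their values did not exceed 1.97, and how reads were divided among copies is not given in the sources used here. Alternatives covered pseudocount, filter, scaling, trend, library weights, libraries fitted, a replicate block and each library left out.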

Additional observations from a re-analysis of the deposited data

How the results depend on the processing

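None of the 10 genes passed under any of the 22 alternatives in any of the 7 comparisons, and the smallest limma adjusted p was 0.211 (Txnrd1, enrichment in saline mice, without standard saline replicate 1). Of 1510 log2 fold changes of members recomputed, 1447 kept their sign and 63 changed it, each of those from a value smaller than its standard error. Many of the 1510 could not change. Leaving out a library of another group returns the same fold change for a comparison of 2 groups. The filter, the trend, the replicate block and fitting only the libraries compared also leave it as it was. The count that kept their sign therefore overstates how steady the values are. The median over the 10 genes moved by less than its spread between libraries (0.081 on the log2 scale) in each alternative. That spread is larger than each of the medians reported, so a median could change sign within it. The median for enrichment in saline mice did, from 0.02 to -0.06 without standard saline replicate 2. The median for the interaction went from 0.01 to -0.07 without enriched saline replicate 3. The number of genes called over the whole table depended more on the setting. It ran from 0 to 7 for ethanol in standard cages (2 as reported), from 0 to 15 in enriched cages (0), from 1 to 20 for enrichment in saline mice (4), from 0 to 21 in ethanol mice (1), from 0 to 12 for the interaction (2), from 0 to 10 for ethanol averaged over housing (2) and from 0 to 11 for enrichment averaged over treatment (3). The cause was not tested. Fitted with the replicate number as a block, 0 members passed in any comparison, with a smallest limma adjusted p of 0.482. Same-numbered libraries of different groups had correlations of their deviations between -0.15 and 0.058, so the numbers were not taken to pair samples, and 2 of 12 libraries correlated best with their own number. Restricting the fit to the libraries compared gave no separate value for the interaction and the averages, which use all 12. Depth is unknown, and 3 libraries a group gave 95% intervals of 1.10-fold (Sod1) to 1.45-fold (Nqo1) on either side of a difference between 2 groups. The promoter search with A or G before the core found 2 of 8 members in place of 4.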
